A study of Mus musculus with 10 samples.

Results

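The Rag GTPases, mTORC1 and its regulators at the lysosome were followed in RNA of mouse medulloblastoma (MB) models through 10 genes of 50559 counted genes. These were Rraga, Rragb, Rragc, Rragd, Mtor, Rptor, Flcn, Fnip1, Fnip2 and Tfeb. The family was chosen from the increase of Rragd in MYC/SMARCA4 tumors, so that values of Rragd in these tumors are given as a description without a test. All 10 genes passed the filter on low counts. There were 4 MYC/SMARCA4 tumors, 3 P7 cerebella and 3 SHH MB, all from formalin-fixed, paraffin-embedded (FFPE) tissue. For the tumors, granule cell precursors (GCPs) of Math1-creERT2::Smarca4fl/fl pups, in which tamoxifen at P3 induces loss of Smarca4 in the Math1 lineage, received a lentiviral Myc construct and were transplanted into cerebella of immunodeficient CD1nu/nu mice. Cells were not sorted for recombination or transduction before transplantation, and the host cerebellum surrounds the tumor. The paper reports that all tumor cells had lost SMARCA4 by staining and that PCR found the recombined allele. It took the RNA from biopsy punches of the tumors. The tumors were taken at 112, 96, 89 and 79 days of age for tumors 1 to 4. P7 cerebella were whole cerebella of Math1-creERT2::Smarca4fl/fl mice at 7 days, after 0.4 mg tamoxifen at postnatal day 3, so that they carry the same Smarca4 alleles and treatment as the donors of the tumor cells. SHH MB came from Math1-cre::Smofl/wt mice at 7 days, in which Cre under the Math1 promoter activates a Smo allele. Age and host therefore differ between the tumors and both other groups and cannot be told apart from the tumor genotype. The labels do not name the animals behind the P7 cerebella and SHH MB, and p-values measure the spread between these samples.

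Total counts were 6547245, 6945005, 5663491 and 9352109 in tumors 1 to 4. They were 8958307, 8139778 and 5933515 in P7 cerebella 1 to 3, and 5930961, 7933586 and 7031248 in SHH MB 1 to 3. Levels are given as CPM, counts scaled by the TMM-normalized library size, or as log2 CPM, for which 2 was the prior count added. Levels of different genes are compared only as CPM per kilobase of exon (RPKM). A floor of 3 counts corresponded to between 0.304 and 0.737 CPM, which covers counting error only. The lowest count of any of the 10 genes was 39.

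The Rag GTPases are small GTPases that work as pairs, RagA or RagB with RagC or RagD. Anchored to the lysosome by the Ragulator complex, they recruit mTORC1, the kinase complex of mTOR and Raptor, when amino acids are sufficient. Folliculin (FLCN), with FNIP1 or FNIP2, activates the GTPase of RagC and RagD, and this branch controls the phosphorylation of TFEB, a transcription factor of lysosomal genes. TFEB and related factors bind variants of the E-box CACGTG, which is also the core motif bound by MYC with MAX, and RRAGD is a known target of TFEB. GCPs of the early postnatal cerebellum divide under SHH and are the cells from which SHH MB arises.

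Promoters are shown because both MYC and TFEB recognise E-boxes and because the genes differed in carrying them. Windows of 300 bases, 250 before and 50 from the start of the canonical transcript, were read from GRCm39 with GENCODE annotation for all 10 genes. CACGTG was found once each in the windows of Rragb, Rragc and Fnip1, and each match was part of TCACGTG, read on either strand. The first base of CACGTG lay 13, 111 and 48 bases before the start in Rragb, Rragc and Fnip1. Rragd held no CACGTG but 1 TCACATG on the opposite strand, at the upstream edge of its window and far from the start. The other 6 genes held none of the 3 motifs. Of 21751 promoters of this length, 7.82% held CACGTG, 4.15% the longer TCACGTG, which contains it, and 3.32% TCACATG. These matches are letters in a window, and binding was not measured. In the sequences, given 5′ to 3′ on the strand of the gene, capitals mark CACGTG in Rragb (chrX:151922590-151922889, plus strand), Rragc (chr4:123810975-123811274, plus strand) and Fnip1 (chr11:54328728-54329027, plus strand), and CATGTGA, the reverse complement of TCACATG, in Rragd (chr4:32982734-32983033, plus strand).
Rragb: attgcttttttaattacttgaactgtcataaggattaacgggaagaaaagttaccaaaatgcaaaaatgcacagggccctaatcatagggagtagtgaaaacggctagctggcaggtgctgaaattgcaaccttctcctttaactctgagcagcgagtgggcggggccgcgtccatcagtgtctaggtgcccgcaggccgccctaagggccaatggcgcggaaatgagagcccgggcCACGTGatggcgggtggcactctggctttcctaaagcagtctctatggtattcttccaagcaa
Rragc: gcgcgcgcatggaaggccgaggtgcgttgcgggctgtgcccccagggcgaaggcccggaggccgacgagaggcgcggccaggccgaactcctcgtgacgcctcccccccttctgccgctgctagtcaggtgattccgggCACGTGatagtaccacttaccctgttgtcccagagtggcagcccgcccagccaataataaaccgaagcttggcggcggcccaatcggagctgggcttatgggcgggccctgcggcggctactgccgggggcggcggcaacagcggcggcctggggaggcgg
Fnip1: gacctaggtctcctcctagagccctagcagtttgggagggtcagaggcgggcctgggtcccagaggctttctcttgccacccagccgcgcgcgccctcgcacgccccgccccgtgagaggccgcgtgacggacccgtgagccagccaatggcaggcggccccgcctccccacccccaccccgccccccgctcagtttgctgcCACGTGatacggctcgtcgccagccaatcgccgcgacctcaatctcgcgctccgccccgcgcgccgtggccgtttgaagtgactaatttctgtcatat
Rragd: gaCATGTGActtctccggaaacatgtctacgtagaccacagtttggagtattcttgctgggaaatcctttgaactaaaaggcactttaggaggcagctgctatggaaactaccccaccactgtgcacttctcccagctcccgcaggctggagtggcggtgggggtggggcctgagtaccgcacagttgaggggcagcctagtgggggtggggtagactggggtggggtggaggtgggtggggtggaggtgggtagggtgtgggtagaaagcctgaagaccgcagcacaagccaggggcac

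The altered genes were read first as a check of the labels. Myc reached 150.8, 365, 1574 and 1007 CPM in tumors 1 to 4, between 12.9 and 14.2 CPM in P7 cerebella and between 33.4 and 45.4 CPM in SHH MB. All tumors lay above all other libraries, with the lowest level in tumor 1. Reads of the murine construct and of the endogenous gene are counted together. Smarca4 reached 207, 242, 135 and 236 CPM in the tumors, between 219 and 280 CPM in P7 cerebella and between 486 and 585 CPM in SHH MB. Tumors and P7 cerebella overlapped. Counts cover the whole gene and the whole tissue, so that recombination of the allele cannot be read from them, and the gene overlaps in exons with Gm56174 and Gm68933.

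The tumors differed more among themselves than the other libraries did, and tumor 1 stood apart. Markers of proliferation, of which Mki67 was the most abundant, summed to 87.0 CPM in tumor 1 and to 1456, 1668 and 1456 CPM in tumors 2 to 4, against 888, 665 and 718 CPM in P7 cerebella and 1918, 1808 and 2278 CPM in SHH MB. Mitochondrial genes took 6.36% of the counts in tumor 1, between 2.29% and 2.94% in the other tumors and at most 1.59% elsewhere. The share of rRNA-like genes was 1.52% to 1.96% of the counts for tumors, 0.357% to 0.416% for P7 cerebella and 0.604% to 0.872% for SHH MB, so that the groups did not overlap. Mitochondrial and rRNA-like genes were left out of the library sizes in an alternative fit. The part of this difference in the results was not otherwise tested. Markers of mature granule neurons, led by Kcnd2, summed to 7769, 2337, 271 and 1422 CPM in tumors 1 to 4, 873, 819 and 773 CPM in P7 cerebella and 330.1, 415 and 440.0 CPM in SHH MB. At an adjusted p of at most 0.05 in edgeR's quasi-likelihood test, 3 of these 8 markers (Gabra6, Cbln3 and Grin2c) were called higher in tumors against P7 cerebella, and 5 (also Calb2 and Vsnl1) against SHH MB. Of all genes, 3.99% and 2.43% were called higher in these comparisons. Tumor 3 lay within P7 cerebella for Gabra6 (15.4 CPM) and within SHH MB for Calb2 (5.14 CPM). Purkinje cell markers, led by Itpr1, summed to 11624, 2781, 352 and 1961 CPM in the tumors, 1540.2, 1497 and 1433 CPM in P7 cerebella and 620.2, 659 and 367 CPM in SHH MB. Of these 7 markers, Itpr1 and Ppp1r17 were called higher against SHH MB, beside 2.43% of all genes, and 0 against P7 cerebella. For both genes tumor 3 lay within SHH MB, at 287 and 4.30 CPM. Neuron markers were thus highest in tumor 1 and lowest in tumor 3.

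Markers of myelinating oligodendrocytes, led by Mbp, summed to 4138, 834, 117 and 461 CPM in tumors 1 to 4, 956, 1134 and 1080.0 CPM in P7 cerebella and 394, 374 and 128 CPM in SHH MB. Markers of astrocytes and Bergmann glia, led by Slc1a2 (in P7 cerebella by Aqp4), summed to 480 CPM in tumor 1, 2530 CPM in tumor 2, 493 CPM in tumor 3 and 1887 CPM in tumor 4, from 2086 to 2152 CPM in P7 cerebella and from 1698 to 1988 CPM in SHH MB. Microglia and macrophage markers, led by Csf1r, summed to 150.4, 102, 51.2 and 138 CPM in the tumors, from 73.6 to 77.0 CPM in P7 cerebella and from 47.9 to 74.1 CPM in SHH MB. Endothelial markers, led by Flt1 in tumors and by Kdr in all but 1 of the other libraries, summed to 287, 148, 92.2 and 127 CPM in the tumors, from 181 to 197 CPM in P7 cerebella and from 174 to 218 CPM in SHH MB. Choroid plexus markers summed to 29.0, 124, 119 and 20.6 CPM in the tumors, mostly Otx2 in tumors 2 and 3 (114 and 97.9 CPM), from 569.8 to 1158 CPM in P7 cerebella and from 312 to 1291 CPM in SHH MB, mostly Ttr in both of these groups. Ttr was between 0.178 and 3.05 CPM in tumors and at least 228 CPM in the other groups. GCP markers, led by Zic1, summed to 1812, 1487, 870.0 and 766 CPM in the tumors, from 1701 to 1897 CPM in P7 cerebella and from 1929 to 2245 CPM in SHH MB. Of all genes, edgeR called 3.99% higher and 2.27% lower in tumors against P7 cerebella, and 2.43% and 2.26% against SHH MB. In SHH MB against P7 cerebella these shares were 0.177% and 0.0467%. Of the 7 astrocyte markers, 3 (Aqp4, Gdf10 and Aldh1l1) were called lower against P7 cerebella and Aldh1l1 against SHH MB. Ttr of 5 choroid plexus markers and Barhl1 of 7 GCP markers were called lower in both comparisons, and Barhl1 was called higher in SHH MB against P7 cerebella. Against SHH MB, Mal of 8 myelin markers was called higher and Kdr of 6 endothelial markers lower, and no microglia or proliferation marker was called in any comparison. Called markers are named after their values were seen. No marker of these 9 lists was at or under 3 counts in every library of a group. In bulk tissue, fewer cells of a type and less RNA per cell cannot be told apart, and the part of these cell types in the results that follow was not tested.

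**Figure D1:**
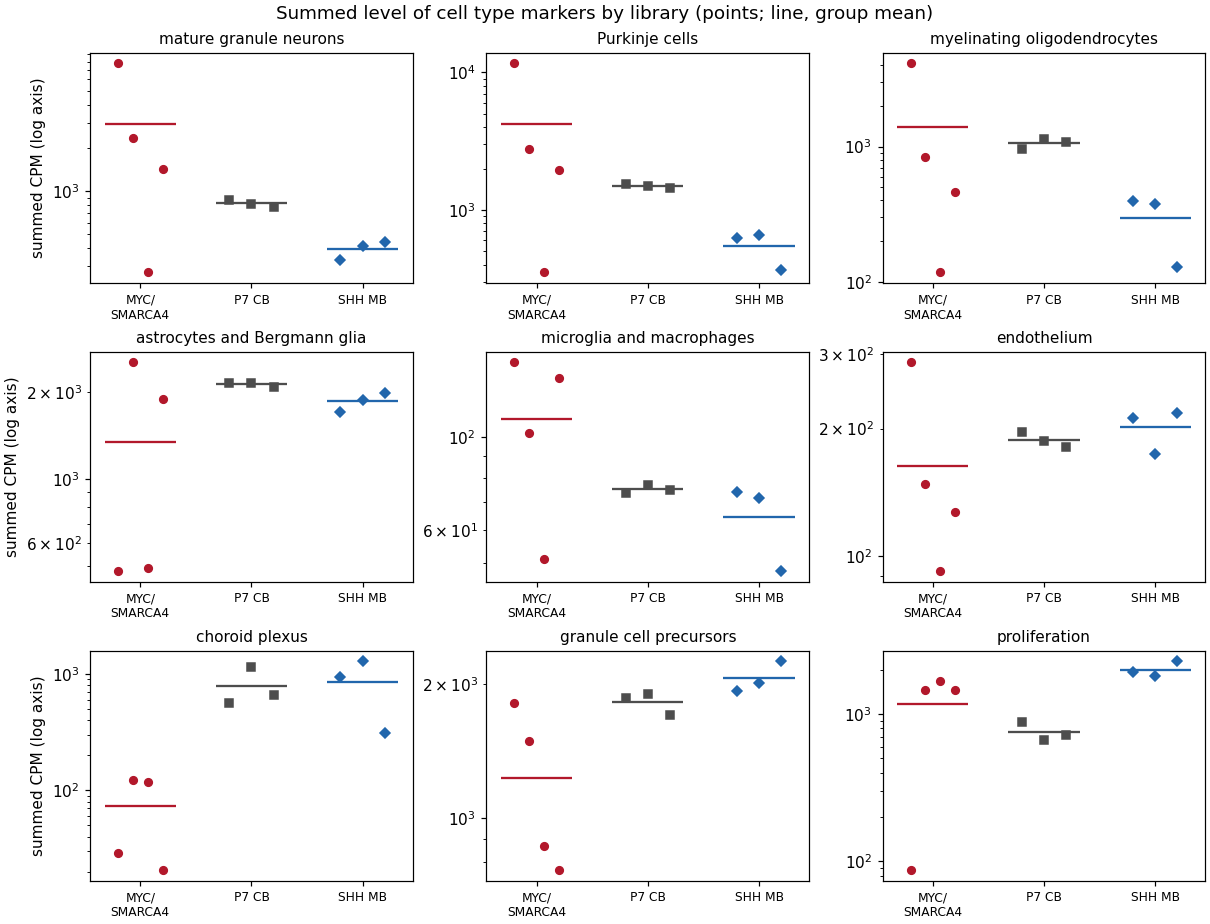
Summed normalized CPM (log axis) of each cell type marker list by library for the 3 groups, with points for libraries and a line for the group mean. Tumor 1, the first point of its group, holds the highest neuron markers and, at 87.0 CPM, the lowest proliferation markers.

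Rragd, the RagD gene that chose the family, reached 144, 203, 125 and 132 CPM in tumors 1 to 4. It reached 37.1, 31.1 and 37.8 CPM in P7 cerebella 1 to 3 and 56.2, 46.2 and 52.1 CPM in SHH MB 1 to 3. All 4 tumors lay above both other groups, and the 3 SHH MB lay above the 3 P7 cerebella. The mean level was 5.15 ± 0.15 log2 CPM (SD, n = 3) in P7 cerebella, 5.69 ± 0.14 (SD, n = 3) in SHH MB and 7.21 ± 0.31 (SD, n = 4) in tumors. Tumors differed by a log2 fold change of 2.09 from P7 cerebella and of 1.55 from SHH MB, and these comparisons share the tumors. Without tumor 1 these were 2.02 and 1.45. SHH MB differed from P7 cerebella by a log2 fold change of 0.54 ± 0.27 (SE), which did not pass the threshold in edgeR's quasi-likelihood test (adjusted p = 0.604 after Benjamini-Hochberg adjustment, higher in 3 of 3 SHH MB). This comparison shares its P7 and SHH MB libraries with those of the tumors, from which Rragd was chosen. Its p-values are therefore a description, and no conclusion is drawn from them. In a fit of these 2 groups alone, without the spread of the tumors, edgeR gave 0.56 with an adjusted p of 0.00315. That fit called 13.4% of all genes higher, and in the other alternatives the adjusted p of Rragd was at least 0.350. The gene lies on chromosome 4 (GRCm39, 32982984 to 33025899, 7 exons) and overlaps in exons with 4933421O10Rik on the opposite strand. That gene had between 51 and 118 counts per library, against 267 to 1135 for Rragd, and strand use in counting is not given in the sources used here.

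**Figure D2:**
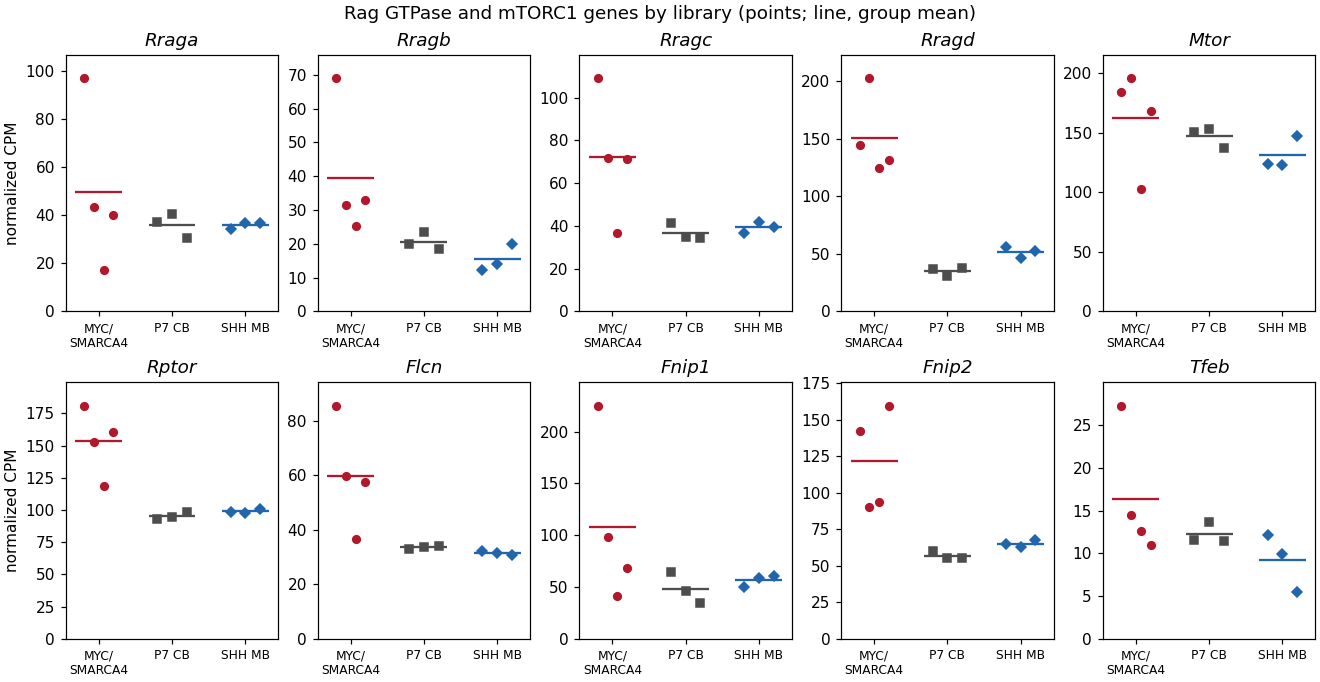
Normalized CPM (linear axis from 0) of the 10 genes by library in MYC/SMARCA4 tumors (n = 4), P7 cerebella (P7 CB, n = 3) and SHH MB (n = 3), with points for libraries in order of replicate and a line for the group mean. Rragd lies between 125 and 203 CPM in tumors, above all other libraries.

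Among the 9 genes other than Rragd, edgeR's quasi-likelihood test called 1 higher (Fnip2) and 0 lower in tumors against P7 cerebella, at an adjusted p of at most 0.05. Of all 29952 genes tested, 3.99% were called higher and 2.27% lower in this comparison. Against SHH MB edgeR called 0 of 9, beside 2.43% of all genes higher and 2.26% lower. At an unadjusted p under 0.05, 6 of 9 passed in either comparison, beside 25.2% of all genes against P7 cerebella and 19.8% against SHH MB. DESeq2 called 4 against P7 cerebella, beside 9.29% of all genes higher and 4.08% lower, and 3 against SHH MB, beside 7.87% and 4.09%. On the deposited VST values limma called 0 in each, beside 1.2% higher and 1.23% lower against P7 cerebella and 0.692% and 1.21% against SHH MB. In simulated data edgeR recovered very few changes of the size of most of these genes' fold changes, so that a gene not called is not shown to be unchanged. In both comparisons the 4 tumors lay above each control library for 4 of 9 (Rragb, Rptor, Flcn and Fnip2), and of all genes tested 10.3% lay above and 10.7% below P7 cerebella in this way, and 7.83% above and 8.3% below SHH MB. The fold changes of all 9 were above 0 in both comparisons, with a median log2 fold change of 0.83 against P7 cerebella and 0.88 against SHH MB, where the median of all genes was -0.05 and 0.01. The comparisons share the tumors and are not independent. In SHH MB against P7 cerebella edgeR called 0 of 9, none had an unadjusted p under 0.05, and the median was -0.0060, beside 0.177% of all genes called higher and 0.0467% lower. DESeq2 called 0, beside 1.72% and 0.669% of all genes, limma 0, beside 0.128% and 0.0173%, and edgeR in a fit of only these 2 groups 0, beside 13.4% and 10.3%. The log2 fold changes there lay between -0.42 (Rragb) and 0.22 (Fnip1). The groups did not overlap for Fnip2, higher in SHH MB, and Flcn, lower, beside 17.8% of all genes higher and 19% lower without overlap.

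These counts depended on single libraries. Without tumor 3, which had the lowest neuron markers, edgeR called 6 of 9 against P7 cerebella (Rragb, Rragc, Rptor, Flcn, Fnip1 and Fnip2) and 5 of 9 against SHH MB (Rragb, Rragc, Rptor, Flcn and Fnip2). The share of all genes called was then 11.8% higher and 22.8% lower, and 9.57% and 13.9%. Without tumor 4, or without any 1 of the 3 P7 cerebella, 0 of 9 were called against P7 cerebella, and the share of all genes called higher was 1.8% without tumor 4 and 0.264%, 0.109% and 0.124% without P7 cerebellum 1, 2 or 3. Without tumor 1, the median log2 fold change of the 9 genes was 0.44 against P7 cerebella and 0.42 against SHH MB, and 6 and 8 of 9 were above 0. Then Fnip2 alone was called against P7 cerebella, beside 9.64% of all genes higher and 6.11% lower, and Rragb alone against SHH MB, beside 5% and 4.75%. Without tumor 4 Rragb was called against SHH MB, beside 2.1% of all genes in each direction. The sign of single genes near 0 also changed with the scaling. With library totals in place of TMM, chosen as an alternative after seeing the data, the median log2 fold change of all genes shifted by -0.36 in tumors against P7 cerebella, by -0.23 against SHH MB and by -0.11 in SHH MB against P7 cerebella. Single genes shifted by different amounts, the 9 genes by -0.56 to -0.40 against P7 cerebella and by -0.46 to -0.29 against SHH MB. The median of the 9 genes was then 0.37 against P7 cerebella (6 of 9 above 0) and 0.48 against SHH MB (8 of 9 above 0). Of all genes, 1194 were called higher and 680 lower against P7 cerebella with TMM, and 315 higher and 1157 lower with library totals. Against SHH MB these were 727 and 676 with TMM and 437 and 908 with library totals, and for SHH MB against P7 cerebella 53 and 14, and 43 and 40.

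**Figure D3:**
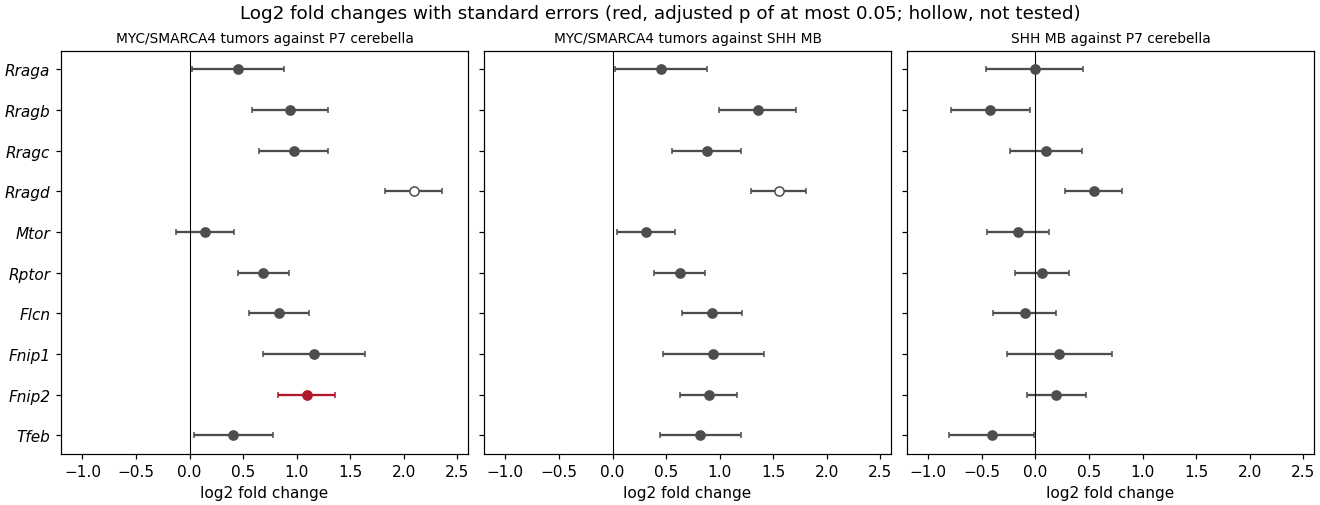
Log2 fold change (x axis) with its standard error for each gene in the 3 comparisons, from edgeR with TMM factors. In both comparisons of the tumors all 10 values lie above 0 (with library totals in place of TMM, 6 and 8 of the 9 genes other than Rragd), Rragd is hollow because it was not tested there, and Fnip2 against P7 cerebella is the only tested gene past an adjusted p of 0.05.

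RagA and RagB each pair with RagC or RagD. Rraga, a gene of a single exon, reached 97.0, 43.5, 17.4 and 40.2 CPM in tumors 1 to 4, 37.0, 40.6 and 30.7 CPM in P7 cerebella and 34.4, 36.7 and 36.8 CPM in SHH MB. The tumors spanned both other groups, with tumor 1 high and tumor 3 low. The log2 fold change was 0.45 ± 0.43 (SE) against P7 cerebella (edgeR, adjusted p = 0.501) and 0.46 ± 0.43 against SHH MB (adjusted p = 0.596), and without tumor 1 it was -0.21 and -0.23. Rragb, on the X chromosome, reached 69.0, 31.4, 25.1 and 32.9 CPM in the tumors, 19.9, 23.5 and 18.5 CPM in P7 cerebella and 12.3, 13.9 and 20 CPM in SHH MB. Each tumor lay above each of the other libraries, tumor 3 by the smallest distance. The log2 fold change of Rragb was 0.94 ± 0.35 (SE) against P7 cerebella (edgeR, adjusted p = 0.126) and 1.36 ± 0.36 against SHH MB (edgeR, adjusted p = 0.0505), and neither passed the threshold. Without tumor 1 the log2 fold changes were 0.44 and 0.83. For the comparison with SHH MB the adjusted p was 0.00982 in DESeq2, and 0.0446, 0.0107 and 0.0457 in edgeR without tumor 1, 3 or 4. Over all fits with 1 library left out, edgeR's adjusted p there reached 0.267. Against P7 cerebella it lay between 0.0350 and 0.358 in such fits.

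Rragc reached 109, 71.9, 36.5 and 71.4 CPM in tumors 1 to 4, 41.2, 34.8 and 34.2 CPM in P7 cerebella and 36.6, 41.8 and 39.3 CPM in SHH MB. Tumor 3 lay within P7 cerebella and just below the lowest SHH MB, and the other tumors lay above all other libraries. Rragc had a log2 fold change of 0.97 ± 0.32 (SE) against P7 cerebella (edgeR, adjusted p = 0.0881) and 0.88 ± 0.32 against SHH MB (edgeR, adjusted p = 0.148). Without tumor 1 it was 0.60 and 0.48. Both passed the threshold without tumor 3 (adjusted p = 0.00634 and 0.00962 in edgeR), and that against P7 cerebella in DESeq2 (adjusted p = 0.0390). With other single libraries left out, edgeR's adjusted p reached 0.291 against P7 cerebella and 0.456 against SHH MB. Rragc overlaps in exons with Gm12905 on the opposite strand.

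Within each library, the ratio of Rragd to Rragc per exon length does not depend on the scaling. It was 0.669, 1.42, 1.72 and 0.932 in tumors 1 to 4, 0.454, 0.451 and 0.557 in P7 cerebella and 0.775, 0.557 and 0.669 in SHH MB. Rragd thus made up 40.1%, 58.7%, 63.3% and 48.2% of the summed RPKM of Rragc and Rragd in tumors 1 to 4, from 31.1% to 35.8% in P7 cerebella and from 35.8% to 43.7% in SHH MB. Tumor 1 lay within the range of SHH MB, and tumors 2 to 4 lay above both groups. The ratio of Rragb to Rraga was 0.269, 0.272, 0.547 and 0.309 in the tumors, from 0.203 to 0.228 in P7 cerebella and from 0.136 to 0.206 in SHH MB, so that the 4 tumors lay above the other 6 libraries. The ratios were not tested.

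**Figure D4:**
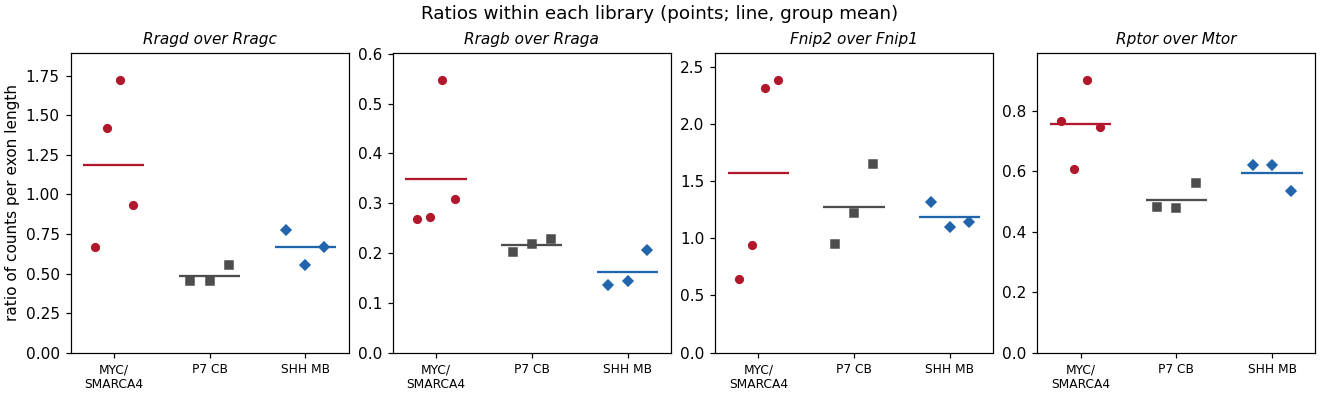
Ratios of counts per exon length between 2 genes within each library (linear axis from 0), with points for libraries and a line for the group mean. Rragb over Rraga and Rragd over Rragc reach 0.547 and 1.72 in tumor 3, the library with the lowest neuron markers.

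Mtor, the kinase, reached 184, 196, 102 and 168 CPM in tumors 1 to 4, 150.7, 153 and 137 CPM in P7 cerebella and 124, 123 and 147 CPM in SHH MB. Tumor 3 lay below and the other tumors above the rest. Mtor had a log2 fold change of 0.15 ± 0.27 (SE) against P7 cerebella (edgeR, adjusted p = 0.738) and 0.31 ± 0.27 against SHH MB (adjusted p = 0.566), and without tumor 1 it was -0.020 and 0.12. Rptor, which encodes Raptor, the subunit that binds substrates and the Rag GTPases, reached 181, 153, 119 and 161 CPM in the tumors, 93.0, 94.2 and 98.5 CPM in P7 cerebella and 98.7, 98.0 and 101 CPM in SHH MB. All tumors lay above the other libraries. Rptor had a log2 fold change of 0.69 ± 0.24 (SE) against P7 cerebella (edgeR, adjusted p = 0.0988) and 0.63 ± 0.24 against SHH MB (edgeR, adjusted p = 0.162), which did not pass the threshold except without tumor 3 (adjusted p = 0.0208 and 0.0356 in edgeR) or, against P7 cerebella, in DESeq2 (adjusted p = 0.0210). Without tumor 1 it was 0.50 and 0.42. The ratio of Rptor to Mtor per exon length was 0.765, 0.608, 0.901 and 0.745 in tumors 1 to 4, from 0.479 to 0.560 in P7 cerebella and from 0.536 to 0.621 in SHH MB. Tumor 2 overlapped SHH MB. Mtor overlaps in exons with Gm69484, and Rptor with Gm69672 and Rptoros.

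Flcn, the GTPase-activating subunit for RagC and RagD, reached 85.5, 59.8, 36.6 and 57.5 CPM in tumors 1 to 4, 33.0, 33.7 and 34.0 CPM in P7 cerebella and 32.1, 31.3 and 30.6 CPM in SHH MB. The tumors lay above all other libraries, and the log2 fold change was 0.83 ± 0.28 (SE) against P7 cerebella (edgeR, adjusted p = 0.0918) and 0.93 ± 0.28 against SHH MB (edgeR, adjusted p = 0.0811). Without tumor 1 these were 0.51 and 0.59. Both passed without tumor 3 (adjusted p = 0.0111 and 0.00811 in edgeR) and in DESeq2 (adjusted p = 0.0418 and 0.0305). With other single libraries left out, edgeR's adjusted p reached 0.287 and 0.318. Flcn overlaps in exons with Gm16062 on the opposite strand. Fnip2, a partner of FLCN, reached 142, 90.5, 93.3 and 159.6 CPM in the tumors, 60.2, 55.0 and 55.3 CPM in P7 cerebella and 64.6, 62.9 and 67.7 CPM in SHH MB. All tumors lay above the other libraries. Fnip2 rose by a log2 fold change of 1.09 ± 0.27 (SE) against P7 cerebella (edgeR, adjusted p = 0.0337, higher in 4 of 4 tumors). Over the alternatives the adjusted p was between 0.00147 and 0.171, and the call was lost with library totals (0.119), in limma (0.0650), with no filter (0.0537), in a fit of only those groups (0.125), without tumor 4 (0.0632) and without P7 cerebellum 1, 2 or 3 (0.120, 0.171 and 0.153). The log2 fold change was 0.70 with library totals and between 0.83 and 1.22 in the other alternatives. Against SHH MB the log2 fold change was 0.90 ± 0.27 (SE, edgeR, adjusted p = 0.0765), which passed in DESeq2 (adjusted p = 0.0168) and in edgeR without tumor 3 (adjusted p = 0.0175). With other single libraries left out, edgeR's adjusted p there reached 0.327.

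Fnip1, the other partner of FLCN, reached 225, 98.0, 41.1 and 68.2 CPM in tumors 1 to 4, 64.3, 45.8 and 34.2 CPM in P7 cerebella and 49.98, 58.3 and 60.4 CPM in SHH MB. Tumor 1 was far above the other tumors. Tumor 3 lay within P7 cerebella and below each SHH MB. Fnip1 had a log2 fold change of 1.16 ± 0.48 (SE) against P7 cerebella (edgeR, adjusted p = 0.153) and 0.94 ± 0.47 against SHH MB (adjusted p = 0.293), and without tumor 1 it was 0.41 and 0.17. Against P7 cerebella it passed without tumor 3 (adjusted p = 0.0231 in edgeR). With other single libraries left out, edgeR's adjusted p there reached 0.451. The ratio of Fnip2 to Fnip1 per exon length was 0.642, 0.940, 2.31 and 2.38 in tumors 1 to 4, from 0.952 to 1.64 in P7 cerebella and from 1.098 to 1.32 in SHH MB, so that the tumors fell on both sides of the other groups.

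Tfeb, the transcription factor, had the lowest level per exon length of the 10 genes in each group, at 2.38 ± 1.08 RPKM (SD, n = 4) in tumors, 1.78 ± 0.18 (SD, n = 3) in P7 cerebella and 1.34 ± 0.50 (SD, n = 3) in SHH MB. It reached 27.3, 14.5, 12.6 and 11.01 CPM in tumors 1 to 4, 11.6, 13.6 and 11.5 CPM in P7 cerebella and 12.2, 9.93 and 5.49 CPM in SHH MB. Tumor 1 stood far above the rest and tumor 2 just above. Tumor 3 lay within P7 cerebella and just above SHH MB, and tumor 4 within SHH MB and below each P7 cerebellum. Tfeb had a log2 fold change of 0.41 ± 0.37 (SE) against P7 cerebella (edgeR, adjusted p = 0.481) and 0.82 ± 0.38 against SHH MB (edgeR, adjusted p = 0.251), and without tumor 1 it was -0.036 and 0.36. Rraga had the highest mean level per exon length in each group, at 30.6 ± 20.9 RPKM (SD, n = 4) in tumors and 22.3 ± 3.1 (SD, n = 3) in P7 cerebella. Rragd was the ninth of 10 in P7 cerebella (4.41 ± 0.46 RPKM), the sixth in SHH MB (6.43 ± 0.63 RPKM) and the second in tumors (18.8 ± 4.4 RPKM). In tumors the ranges of each neighbouring pair overlapped down to Flcn, so that the order there is not resolved beyond their spread. In P7 cerebella neighbouring genes overlapped from Fnip2 down to Rragd, and in SHH MB Rragd overlapped Fnip2 above and Fnip1 below it.

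The wider pathway was read from 95 listed genes, of which 93 were found in the files and passed the filter. In tumors against P7 cerebella edgeR called 2 of 93 higher (2.15%) and 0 lower, beside 3.99% and 2.27% of all genes. These were Deptor, an mTOR inhibitor, at a log2 fold change of 1.05 ± 0.26 (SE, edgeR, adjusted p = 0.0362, above P7 cerebella in 4 of 4 tumors), and Eif4ebp1, a translation repressor phosphorylated by mTORC1, at 2.91 ± 0.64 (SE, edgeR, adjusted p = 0.0223). Eif4ebp1 reached 2.46 CPM in tumor 1 and 24.1, 33.0 and 32.2 CPM in tumors 2 to 4, against 2.33, 3.46 and 3.40 CPM in P7 cerebella, so that tumor 1 overlapped P7 cerebella. With library totals in place of TMM, 0 pathway genes were called higher and 2 lower (Castor2 and Grb10), beside 1.05% and 3.86% of all genes. Without tumor 4, or without any 1 of the P7 cerebella, 0 pathway genes were called against P7 cerebella, and without tumor 3, 18 were called higher and 1 lower, beside 11.8% and 22.8% of all genes. Without tumor 1, 6 were called higher and 2 lower (Castor2 and Atp6v0c), beside 9.64% and 6.11% of all genes, and without tumor 2, 1 higher and 0 lower, beside 1.77% and 1.6%. Against SHH MB edgeR called 3 of 93 higher (3.23%) and 1 lower (1.08%), beside 2.43% and 2.26% of all genes. Gaa, the lysosomal acid alpha-glucosidase, had a log2 fold change of 1.84 ± 0.41 (SE, edgeR, adjusted p = 0.0245), and the V-ATPase subunits Atp6v1a and Atp6v1g2 of 1.72 ± 0.43 and 2.68 ± 0.68 (adjusted p = 0.0395 and 0.0419 in edgeR). For Atp6v1g2 tumor 3 lay below all 3 SHH MB, at 14.7 CPM against 15.1 to 21.3 CPM, against the direction of the call. Grb10, an adaptor and mTORC1 substrate, fell by 1.91 on the log2 scale (edgeR, adjusted p = 0.0115, lower in 4 of 4 tumors). Without tumor 1, 7 were called higher and 1 lower against SHH MB, beside 5% and 4.75% of all genes, and without tumor 2, 1 in each direction, beside 1.29% and 1.79%. Without tumor 3, 24 were called higher and 1 lower against SHH MB, beside 9.57% and 13.9% of all genes, and without SHH MB 1, 2 or 3, 0 were called higher, beside 0.174%, 0.188% and 0.166% of all genes. Grb10 was not called without SHH MB 3. In SHH MB against P7 cerebella edgeR called 0 of 93, beside 0.177% of all genes higher and 0.0467% lower, and in a fit of only these 2 groups 11 higher and 22 lower, beside 13.4% and 10.3%. At an unadjusted p under 0.05, 16, 22 and 7 of the 93 passed in the 3 comparisons, beside 25.2%, 19.8% and 8.8% of all genes. DESeq2 called 6, 11 and 0 of the 93, beside 9.29%, 7.87% and 1.72% of all genes higher and 4.08%, 4.09% and 0.669% lower. For limma these were 0, 1 and 0, beside 1.2%, 0.692% and 0.128% higher and 1.23%, 1.21% and 0.0173% lower.

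By list, the V-ATPase genes (18), which acidify the lysosome, had a median log2 fold change of 0.44 against P7 cerebella and 0.96 against SHH MB, with 16 of 18 above 0 in both. Of all genes, 48.1% and 50.4% were above 0 in these comparisons. In SHH MB against P7 cerebella the median was -0.62, with 2 of 18 above 0, beside 43.8% of all genes. There the fit of all libraries called 0 of 18. In the fit of only these 2 groups edgeR called 13 lower and 1 higher, beside 10.3% of all genes lower and 13.4% higher. That fit also called 4 of 7 mTORC1 substrates and 2 of 5 GATOR2 genes higher. Of the 31 lysosomal genes it called 4 higher and 7 lower, and 1 gene each of Ragulator and the amino acid sensors lower. The summed level of the V-ATPase genes was 3248, 1554, 515 and 1141 CPM in tumors 1 to 4, 1147, 1132 and 977 CPM in P7 cerebella and 689, 749 and 717 CPM in SHH MB. Only tumors 1 and 2 thus lay above P7 cerebella, while tumor 4 lay within their range and tumor 3 below it. The list medians of the tumors use all 4 tumors and TMM factors, and none is given without tumor 1 or with library totals. Library totals shifted the median of all genes by -0.36 against P7 cerebella and by -0.23 against SHH MB. How far the list medians depend on the scaling was not tested. The 31 lysosomal genes of the CLEAR network, led by Psap, had medians of 0.51 and 0.50, with 29 and 28 above 0. They summed to 3948, 2155, 863 and 2040.0 CPM in the tumors, 1406, 1403 and 1283 CPM in P7 cerebella and 1188, 1294 and 1155 CPM in SHH MB. In both lists the tumors had the same order as in the markers of granule neurons, Purkinje cells, myelin and endothelium, with tumor 1 highest and tumor 3 lowest, and the part of these cell types in the sums was not tested. The other subunits of mTORC1 had medians of 0.75 and 0.60, Ragulator of 0.25 and 0.53, and RHEB with the TSC complex of 0.40 and 0.49. GATOR2, a positive regulator, had 0.57 and 0.13, and GATOR1 with KICSTOR, the negative regulators, 0.33 and 0.30. The amino acid sensors had 0.12 and 0.34, mTORC1 substrates 0.52 and 0.29, mTORC2 subunits -0.08 and -0.06, and the other MiT/TFE factors -0.36 and -0.09. The first value of each pair is against P7 cerebella, the latter against SHH MB.

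**Figure D5:**
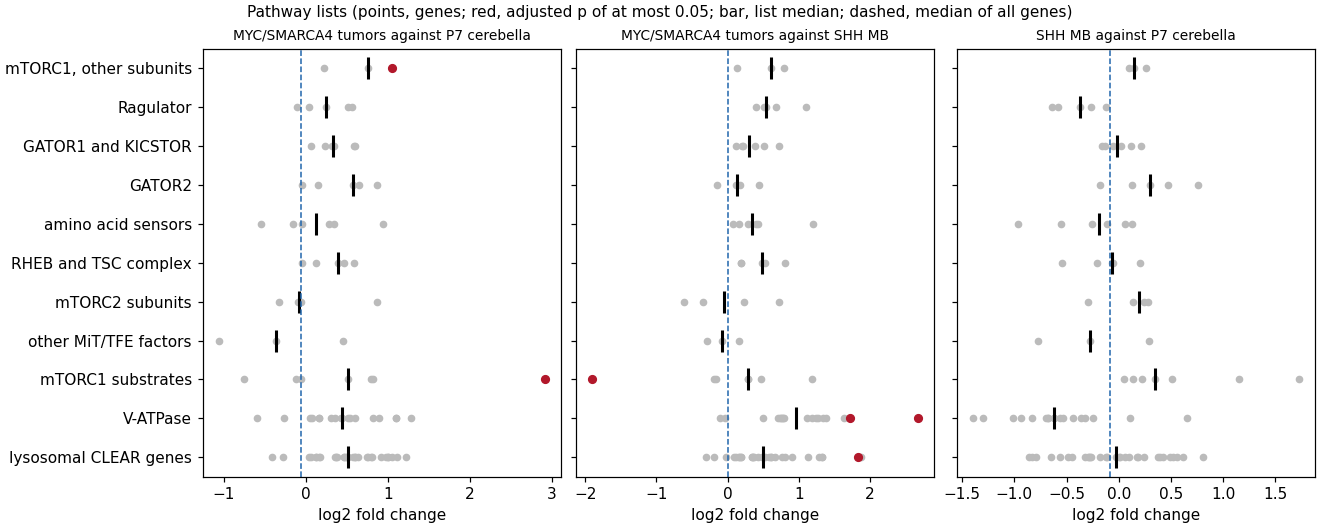
Log2 fold change (x axis) of each gene of the 11 pathway lists in the 3 comparisons, with a black bar for the list median, a dashed line for the median of all genes and red for genes past an adjusted p of 0.05 in edgeR. Between 0 and 4 of 93 genes per comparison are red.

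Among 10001 tested genes with a mean of at least 4 log2 CPM, the 6 whose levels over the 10 libraries had the highest Pearson r with Rragd were Gm31349 (r = 0.987), Rabggtb (0.981), Bcat1 (0.978), Mbnl1 (0.976), Jade1 (0.975) and Me2 (0.975). The r is a description over libraries that fall into groups, without a p, and 231 genes had an r of at least 0.9. Bcat1, an enzyme of branched-chain amino acid catabolism, reached 151 to 171 CPM in tumors, 67.8 to 75.4 CPM in P7 cerebella and 89.9 to 102 CPM in SHH MB. Jade1 reached 161 to 201 CPM in tumors, 39.9 to 53.9 CPM in P7 cerebella and 58.6 to 70.1 CPM in SHH MB. Of the 9 other family genes, Rptor had the highest r with Rragd (0.903) and Rraga the lowest (0.216).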

How the data were processed

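RNA of 10 FFPE samples was measured by sequencing after depletion of ribosomal RNA. The authors trimmed reads with Trimmomatic 0.38.1, aligned them to GRCm39 with STAR 2.7.8a and counted them with featureCounts 2.0.1 (versions from the submitters' processing notes), and deposited raw counts per gene. They also deposited VST values, which are on a log2 scale and came from variance stabilization in DESeq2.

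Counts were tested here with edgeR's quasi-likelihood method (4.0.16, R 4.3.3), with all 10 libraries in 1 fit, TMM factors, filterByExpr by group and Benjamini-Hochberg adjustment over 29952 genes. Calls used an adjusted p of at most 0.05. The steps were tested on simulated data, where large changes were recovered by edgeR and DESeq2 but few changes as small as those of most members by any of the methods. Alternatives were DESeq2 1.42.0, limma 3.58.1 on the VST values, RLE factors, no filter, only the groups compared, robust estimation, a replicate block, library sizes without mitochondrial and rRNA-like genes, a stricter call rule, a prior count of 0.5, each library left out, and, added after seeing the data, library totals without TMM factors. Genes named are the 10 members, called or most abundant pathway genes, the most abundant gene of each marker list, Myc, Smarca4 and the 6 genes most like Rragd; called markers and genes overlapping a member were added after seeing the values. Kics2 and Samtor were not matched to a row. Members and lists were chosen with earlier results of these data known. Total counts ranged from 5663491 to 9352109 per library.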

Additional observations from a re-analysis of the deposited data

Results flagged for a closer look

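Among 38 measures of the 4 tumors, 3 had a library far from the others, judged by its gap to the nearest tumor as a share of the range of the group. Chance alone gives such a library in about 1 in 20 groups. The summed proliferation markers (log2 CPM) were lowest in tumor 1, with a gap of 0.954 of the range. The share of mitochondrial counts was highest in tumor 1 (0.842 of the range), at 6.36%. The ratio of Rragb to Rraga per exon length was highest in tumor 3 (0.854 of the range), at 0.547 against 0.269 to 0.309 in the other tumors.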

How the results depend on the processing

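For the 9 members against P7 cerebella, where edgeR called 1, DESeq2 called 4, and limma on VST values, library totals without TMM factors, no filter, only the 2 groups compared, the replicate block and the stricter rule (log2 fold change of at least 1.5, adjusted p of at most 0.01) each called 0. Of all genes, limma called 1.2% higher and 1.23% lower there, library totals 1.05% and 3.86%, no filter 2.22% and 1.11%, only the 2 groups 0.206% and 0.607%, the replicate block 0.551% and 0.688% and the stricter rule 0.26% and 0.477%, against 3.99% and 2.27%. Library sizes without mitochondrial and rRNA-like genes gave 1 (Fnip2), beside 3.86% of all genes higher and 2.17% lower. Leaving out 1 library gave 0 to 6. Against SHH MB (0 called), DESeq2 called 3 and leaving out 1 library gave 0 to 5. Of the pathway genes against P7 cerebella (2 called), DESeq2 called 6, no filter 1, and limma, the replicate block, only the 2 groups compared and the stricter rule 0, with 0 to 19 on leaving out 1 library. With library totals 2 were called, both lower (Castor2 and Grb10). Against SHH MB (4 called), DESeq2 called 11, limma, the replicate block and only the 2 groups compared 1 each, and the stricter rule 0, with 0 to 25 on leaving out 1 library. Of all genes, DESeq2 called 7.87% higher and 4.09% lower there, limma 0.692% and 1.21%, the replicate block 0.771% and 1.34%, only the 2 groups 0.337% and 1.15% and the stricter rule 0.294% and 0.938%, against 2.43% and 2.26%. In SHH MB against P7 cerebella, the fit of only these 2 groups called 33 pathway genes (11 higher, 22 lower) in place of 0, where 13.4% and 10.3% of all genes were called higher and lower. That fit has no tumors in its estimate of the spread. The causes of the other changes were not tested.

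Replicate numbers did not pair the samples: over 9 pairs with the same number, deviations from the group means correlated between -0.27 and 0.16, and 1 pair was over 0.1. With the replicate block the adjusted p of Fnip2 against P7 cerebella was 0.161 in edgeR.

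Some log2 fold changes that passed no threshold changed sign. Against P7 cerebella, library totals gave -0.10 for Rraga, -0.28 for Mtor and -0.039 for Tfeb, and leaving out 1 library gave -0.21 to 0.52, -0.020 to 0.15 and -0.036 to 0.46. Against SHH MB, library totals gave -0.0093 for Mtor, and leaving out 1 library -0.23 to 0.55 for Rraga. In SHH MB against P7 cerebella, Rraga (-0.0060) was at 0.041 with DESeq2, 0.031 with limma, 0.032 with RLE factors, 0.043 with no filter, 0.032 with the replicate block, 0.018 without mitochondrial and rRNA-like genes, 0.014 with only the 2 groups compared and -0.10 to 0.075 on leaving out 1 library. Library totals gave -0.010 for Rragc and -0.049 for Rptor there. The level of Rragd moved by less than the spread of its group with a prior count of 0.5.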
